A study of Mus musculus with 9 samples.

Results

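The nuclei described here carried the transcripts of leptomeningeal and perivascular fibroblasts, the connective tissue cells of the pia and arachnoid and of the sleeves around larger brain vessels. A nucleus was counted when it had 200 to 5000 genes, at most 10% mitochondrial UMIs (unique molecular identifiers, each standing for 1 captured transcript), at least 1 UMI of 3 or more of the 11 markers Col1a1, Col1a2, Col3a1, Dcn, Lama1, Slc47a1, Slc6a13, Lum, Ranbp3l, Bnc2 and Aldh1a2, and no UMI of the 6 genes Slc17a7, Gad1, Mog, Flt1, Atp13a5 and Ttr, which mark neurons, oligodendrocytes, endothelial cells, pericytes and choroid plexus. Of 74895 nuclei within the limits on genes and mitochondrial UMIs, 770 met the rule, which is 1.03%. The markers were chosen from measured values, so their levels and detection describe the members and test nothing.

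The nuclei came from the pooled cortex and hippocampus of 9 wild-type mice in 3 groups of 3. Young mice and a first group of aged mice had received AAV-EGFP, a virus for the green fluorescent protein. A second group of aged mice had received AAV-B3GNT3, which carries an enzyme of mucin-type O-glycan synthesis. Every mouse was injected retro-orbitally 8 weeks before tissue collection, so each group, the young one included, carried a virus, and there was no group without one. Per the methods of the study the virus was built for brain endothelial cells, with a CLDN5 promoter fragment, so fibroblasts were not its intended target. Nuclei were released by homogenization and sorted as single nuclei stained with Hoechst, a DNA dye. The methods also describe an antibody stain for the neuronal protein NeuN, and whether NeuN was used to choose nuclei is not given in the sources used here. Young mice that had received AAV-B3GNT3 were not analysed here, so age and virus were each compared along a single arm. The methods give the National Institute on Aging as the source of aged mice and Jackson Laboratories as that of young mice. Age and source colony thus cannot be told apart in comparisons of aged with young mice.

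Leptomeningeal fibroblasts lay down the collagens and laminins that form the outer limit of the brain, carry many solute transporters that face the cerebrospinal fluid, and make retinoic acid and bone morphogenetic proteins. Arachnoid cells next to the dura form a tight barrier with efflux pumps, and pial and perivascular cells sit against the basement membrane that the astrocyte endfeet share. A nucleus holds mostly unspliced RNA, so long genes tend to give more UMIs than short ones, and levels are compared below within a gene.

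The libraries held 47332047 to 79964605 UMIs each, and the fibroblast nuclei of a sample gave 114235 to 438056 of them. The members of a sample numbered 101, 114 and 107 in the young mice, 45, 57 and 82 in the aged mice with AAV-EGFP, and 58, 139 and 67 in the aged mice with AAV-B3GNT3. A member had a median of 2845 UMIs and 1675.5 genes, against sample medians of 3233 to 5582 UMIs over all nuclei. Any 2 libraries shared at most 37 barcodes, 0.414% of the smaller library. In the aged AAV-EGFP group, replicates 2 and 3 were more alike than either was to replicate 1. Over 2358 genes, the deviations of their summed member profiles from the mean of all samples had an r of 0.26 with each other. With those of replicate 1 the r was −0.13 and −0.26. Values like 0.26 were not particular to this pair: young replicates 2 and 3 had 0.27, and young replicate 1 with AAV-B3GNT3 replicate 2 had 0.29. Deviations from a shared mean tend to correlate slightly below 0. Replicate 1 also had the fewest members, 45, and the fewest member UMIs, 114235. These correlations are across genes, which are not independent replicates. For named genes that moved with replicates 2 and 3 of the aged AAV-EGFP group, values without them are given below.

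The rule markers were detected very unequally among the members. Col1a2, a chain of type I collagen, had a UMI in 64.9% of members, Ranbp3l in 59.6%, Lama1, the laminin chain of pial and embryonic basement membranes, in 58.4%, and Slc6a13, a GABA and taurine transporter, in 47.9%. Bnc2 was detected in 41.8%, Aldh1a2, which makes retinoic acid, in 36.4%, Slc47a1, an organic cation exporter, in 29.6%, Dcn in 24.5%, Col1a1 in 18.1%, Col3a1 in 14.3% and Lum in 4.55%. In the other nuclei the median sample share was 1.87% for Col1a2 and 6.54% for Ranbp3l, the most widespread marker there, and each of the other 9 was at 2.80% or less. The level of Bnc2 was 1278 to 2861 CPM across samples, where CPM is the number of UMIs of a gene per 1000000 UMIs of all genes in the members of a sample. The level of Ranbp3l was 449 to 1725 CPM and that of Lama1 528 to 1316.

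Nuclei just outside the threshold were less uniform than those just inside it. Among nuclei with none of the 6 excluded genes, 473 had 2 markers and 337 had 3. Cped1, a gene outside the rule, was detected in 55.2% of the former and 92.6% of the latter, and Bmp6 in 41.0% and 77.2%. Slc1a2, a glutamate transporter of astrocytes, went the other way, with 71.0% at 2 markers and 43.0% at 3. Another 854 nuclei had 3 or more markers but also a UMI of an excluded gene, most often Flt1, in 381 of them.

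Genes that the rule did not use gave the nuclei a mesenchymal profile in every sample. Cped1 was found in 95.1% of members and Bmp6, a bone morphogenetic protein, in 83.0%. Eya2, a transcriptional cofactor, was at 569 to 1348 CPM in members across samples and at no more than 17.3 in the other nuclei of any sample. Foxd1, Tbx15, Tbx18, Zic1, Zic2 and Zic4, transcription factors of mesenchymal and meningeal development, were higher in members than in other nuclei in 9 of 9 samples, as were Col4a5 and Col4a6, chains of type IV collagen. These contrasts share their nuclei with the rule and are a description.

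Several markers of other cell types had few UMIs or none in members. Over all 2493335 member UMIs there were 0 of F13a1, Cd163 and Ms4a7, genes of border macrophages, and 1 of Mrc1. Pf4 and Lyve1 of the same list had 2 and 3 UMIs, at a higher CPM than in other nuclei. The pericyte channel Kcnj8 and the smooth muscle gene Cnn1 had 0 UMIs, Myh11 had 1, Acta2 had 7 and the endothelial gene Cldn5 had 8. Such genes were scarce in other nuclei too: Acta2 was at 2.81 CPM in members against 0.462, and Cldn5 at 3.21 against 3.26. A count of 0 allows up to 3 UMIs, and this limit covers counting error only. Other genes on the same lists were present, among them Abcb1a with 477 UMIs, Mrvi1 with 371, Vtn with 140 and Lmod1 with 108. The smooth muscle gene Tagln had 62, at 24.9 CPM against 0.838 in other nuclei. The summed endothelial, pericyte and smooth muscle lists, pooled over samples, were thus higher in members than in other nuclei. The astrocyte genes Slc1a3 and Gja1 were also higher in members, at 1128 against 243 and at 164 against 22.8 CPM, while Aqp4 was at 10.8 against 12.9. The label of fibroblasts thus rests on the collagen and mesenchymal genes. No marker list separated perivascular from leptomeningeal fibroblasts, so that distinction in the name was not checked.

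The members fell into nuclei with Lama1 and nuclei with Slc47a1, which almost never met in a nucleus. Lama1 (chr17:67697259-67822647, plus strand, GRCm38) had a UMI in 450 members and Slc47a1 (chr11:61343401-61378345, minus strand) in 228, and only 7 nuclei had both. Among Lama1 nuclei, 81.6% had Ranbp3l, 70.7% Slc6a13, 49.8% Aldh1a2 and 12.2% Bnc2. Among Slc47a1 nuclei, 98.7% had Bnc2 and 80.3% Col1a2, but 4.39% Ranbp3l and 2.63% Slc6a13. Because a nucleus needed 3 markers to be counted, the rule itself shapes these shares. Aldh1a2 and Slc6a13, listed as arachnoid markers, went with Lama1, listed as a pial one. Of the listed layer markers outside the rule, 4 of 5 pial markers assessed were higher in Lama1 nuclei in 9 of 9 samples and 0 in Slc47a1 nuclei, and of 5 arachnoid markers 1 was higher in Lama1 nuclei and 2 in Slc47a1 nuclei, where all 8252 genes assessed gave 7.42% and 4.52%. Markers of the arachnoid list thus lay on both sides, and the nuclei are called by their genes and not by a layer.

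**Figure D1:**
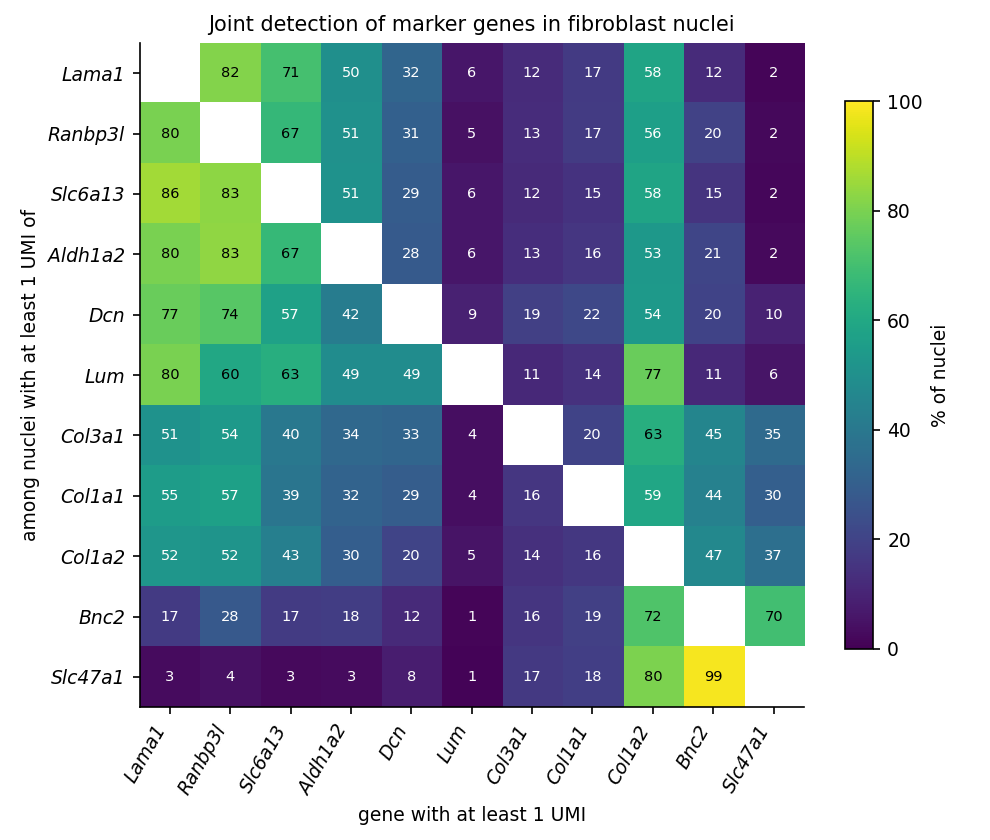
Joint detection of the rule markers in the 770 fibroblast nuclei: each row takes the nuclei with at least 1 UMI of a marker and each cell gives the percentage of them that also had the gene of the column. Lama1 and Slc47a1 meet in 7 nuclei, and 98.7% of Slc47a1 nuclei had Bnc2.

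After these values were seen, the members were divided into 443 nuclei with Lama1 and without Slc47a1 (57.5%), 221 with Slc47a1 and without Lama1 (28.7%), 7 with both and 99 with neither (12.9%). Lama1 nuclei had a median of 2590 UMIs and Slc47a1 nuclei 3713, so shares of nuclei with a UMI favour the latter. Genes outside the rule are given as a description with no test, and the part of depth in their shares was not tested.

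On the Lama1 side stood the basement membrane. Of its 16 genes assessed, 11 were at a higher level in Lama1 nuclei in 9 of 9 samples and 0 in Slc47a1 nuclei, against the same 7.42% and 4.52% of all genes. Col4a6 was detected in 69.5% of Lama1 nuclei and 0.452% of Slc47a1 nuclei, Col4a5 in 67.0% and 1.81%, and Lamc3, a laminin chain, in 37.3% and 0.452%. Svep1, a large adhesive matrix protein, had UMIs in 45.4% of Lama1 nuclei and in none of the 221 others. Timp3, an inhibitor of matrix proteases, was detected in 70.7% and 13.6%. Slc7a11, the cystine and glutamate exchanger, was detected in 92.6% and 3.62%, and Slc6a20a, a proline carrier, in 86.5% and 2.26%. The level of Slc7a11 in Lama1 nuclei was 2006 to 6108 CPM across samples, with a median of 3574, against 0 to 706 with a median of 5.70 in Slc47a1 nuclei. Colec12, a scavenger receptor, was detected in 85.8% and 1.36%, and Slc1a3, the glutamate transporter also found in astrocytes, in 89.2% and 14.9%.

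Other genes outside the rule were detected mostly in Slc47a1 nuclei. Slc26a7, an anion exchanger, was detected in 86.0% of Slc47a1 nuclei and in none of the 443 Lama1 nuclei. Slc4a10, a sodium bicarbonate carrier, was detected in 98.2% and 24.8%, and its level was 1871 to 6554 CPM across samples against 30.8 to 170.2. The ATP-driven pumps Abcb1a (69.7% against 0.903%), Abcc4 (90.0% against 7.45%) and Abcg2 (74.7% against 16.5%) marked these nuclei too. Rspo3, which strengthens Wnt signals, was detected in 72.9% and 2.26%, and Slit2, a guidance cue, in 87.3% and 9.48%. Adamtsl3, a matrix protein, was detected in 89.6% and 0.451%, and Slc38a1, a glutamine transporter, in 74.2% and 5.64%. The counts of list genes that follow stand against 7.42% of all 8252 genes higher in Lama1 nuclei in 9 of 9 samples and 4.52% in Slc47a1 nuclei. Of the 21 listed leptomeningeal transporters, 9 were higher in Lama1 nuclei in 9 of 9 samples and 7 in Slc47a1 nuclei. Of 16 Wnt pathway genes, 6 were higher in Lama1 nuclei in every sample and 3 in Slc47a1 nuclei, and of 20 growth factor genes 6 and 1. Among 32 mesenchymal transcription factors, 6 were higher in Lama1 nuclei in every sample and 8 in Slc47a1 nuclei. Of 12 abundant neuronal genes, 0 were higher on the same side in all 9 samples, a count near the share of all genes. The 99 nuclei with neither gene had Ptgds, the prostaglandin D synthase of the leptomeninges, in 79.8%, against 74.5% of Lama1 nuclei and 34.4% of Slc47a1 nuclei. The adhesion molecule Cdh1 was detected in 22.2% of them, against 0.451% and 28.1%, and the peptidase Dpp4 in 19.2%, against 2.48% and 12.2%.

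**Figure D2:**
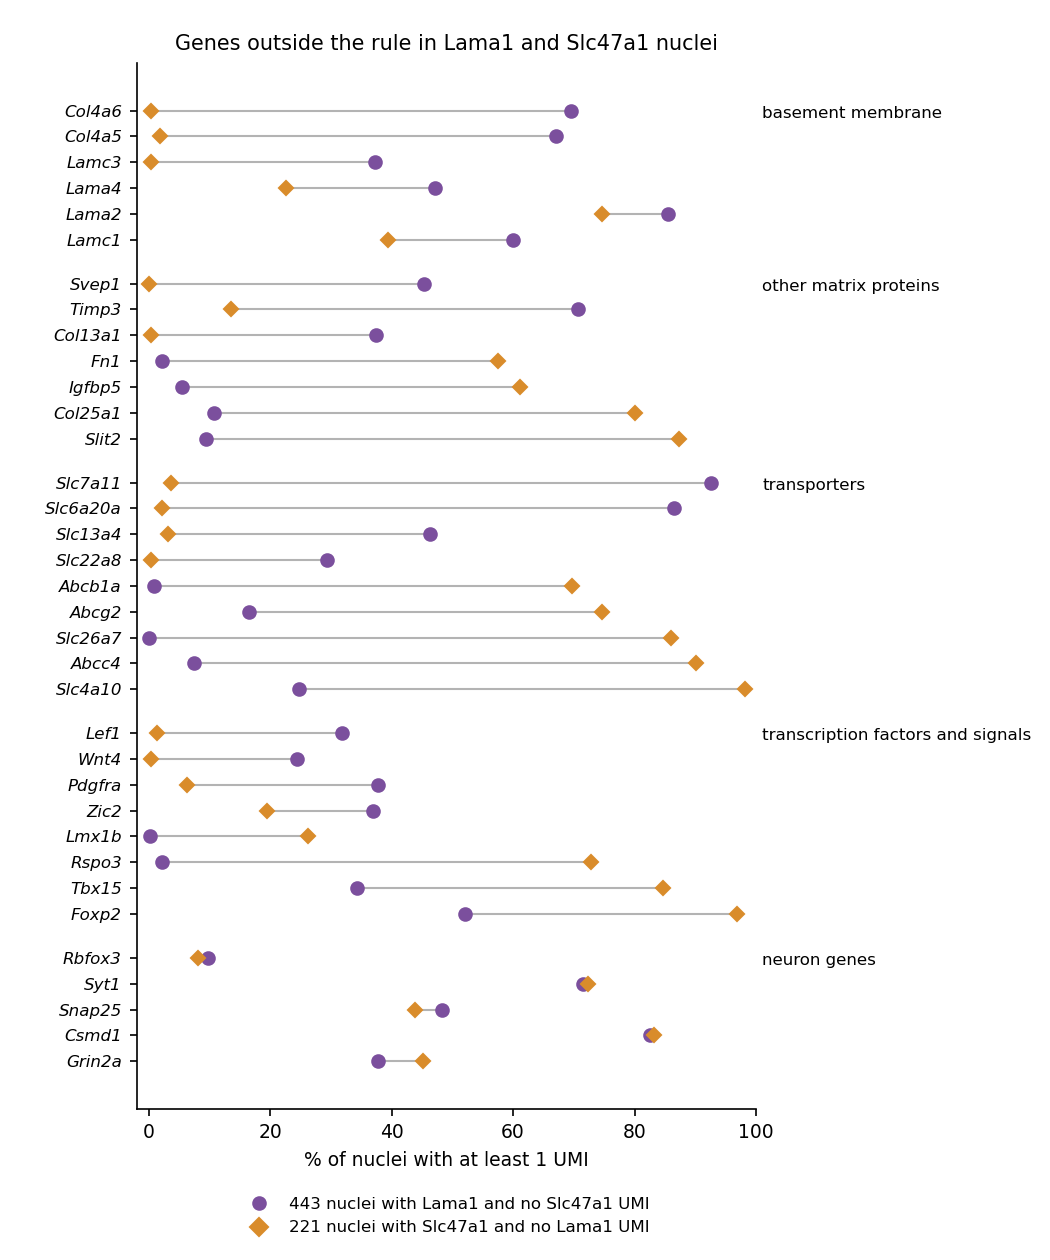
Percentage of nuclei with at least 1 UMI of genes that the rule did not use, in the 443 nuclei with Lama1 and no Slc47a1 (circles) and the 221 nuclei with Slc47a1 and no Lama1 (diamonds), pooled over 9 samples. Basement membrane genes such as Col4a6 (69.5% and 0.452%) lie on the Lama1 side, pumps such as Abcb1a on the Slc47a1 side, and neuronal genes close together.

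Both kinds of nuclei were present in every group. Nuclei with Lama1 alone made up 60.2% ± 9.69 of the members in young mice, 56.1% ± 9.63 in aged mice with AAV-EGFP and 57.4% ± 5.10 in aged mice with AAV-B3GNT3 (SD, n = 3 each). Nuclei with Slc47a1 alone made up 25% ± 11.5, 26.6% ± 5.63 and 34.3% ± 2.58. The spread between mice of a group exceeded most of the gaps between the group means, and no test was made because the rule used both genes.

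The share of nuclei that were fibroblasts was lower in the aged AAV-EGFP mice than in the young mice in these samples, without passing the test. It was 1.11%, 1.15% and 1.78% in the young mice, 0.627%, 0.569% and 1.0% in the aged AAV-EGFP mice, and 0.940%, 1.39% and 0.804% in the aged AAV-B3GNT3 mice. The young and aged AAV-EGFP values did not overlap, and the AAV-B3GNT3 values overlapped both. The means were 1.35% ± 0.376, 0.733% ± 0.236 and 1.04% ± 0.305 (SD, n = 3 each). Over all 280 ways to divide the 9 samples into 3 groups, the F statistic had an exact permutation p of 0.132. The two-sided exact permutation p was 0.1 for aged against young AAV-EGFP, the smallest that 3 against 3 allows, 0.3 for AAV-B3GNT3 against AAV-EGFP in aged mice and 0.4 for aged AAV-B3GNT3 against young; adjusted over these 3 pairs, the permutation p-values were 0.3, 0.4 and 0.4. The lowest share, 0.569%, had a 95% Wilson interval of 0.440 to 0.737%, and the highest, 1.78%, of 1.48 to 2.15%; such intervals cover counting error only. With at least 4 markers required, the means were 0.819%, 0.386% and 0.564% and the exact permutation p of the F statistic was 0.0143. When members with UMIs of 2 or more markers of any other cell type were removed, 136 remained and the aged AAV-EGFP mean was 0.0621 points above the young mean. The exact permutation p of the F statistic was then 0.646. In other nuclei the 11 rule markers summed to 66.1 to 97.7 CPM in young mice and 39.3 to 52.2 in aged AAV-EGFP mice. In aged AAV-B3GNT3 mice the sum was 59.9 to 114. The part of marker RNA outside the members in the share was not tested. Whether the meninges were removed at dissection is not given in the sources used here. Fewer fibroblasts in the tissue and fewer fibroblast nuclei recovered from it cannot be told apart by such a share.

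**Figure D3:**
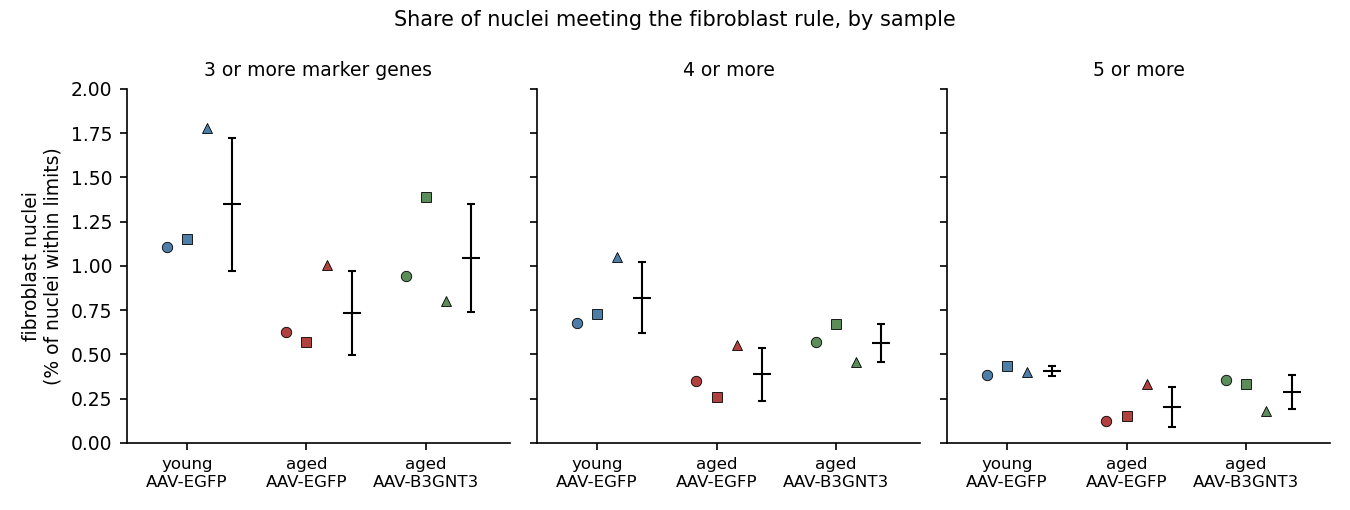
Fibroblast nuclei as a percentage of nuclei within the limits, by sample, under the rule as given and with at least 4 or at least 5 markers required. Points are mice and bars are the mean ± SD of 3. Under the rule as given the young mice lie at 1.11 to 1.78% and the aged AAV-EGFP mice at 0.569 to 1.0%.

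To ask which genes differed with age in these nuclei, UMIs were summed over the members of each sample and 5753 genes were tested, leaving out the 17 genes of the rule. No gene passed in aged against young AAV-EGFP mice. edgeR's quasi-likelihood test with Benjamini-Hochberg adjustment called 0 of 5753 genes (0% of genes), with a lowest adjusted p of 0.0655. At an unadjusted p under 0.05 there were 838 genes (14.6%), 427 higher (7.42%) and 411 lower (7.14%), and DESeq2 called 35 (0.608%). Malat1, a nuclear noncoding RNA, took 4.11, 4.24 and 4.20% of member UMIs in young mice, 5.46, 5.11 and 5.09% in aged AAV-EGFP mice and 4.47, 4.29 and 4.11% in aged AAV-B3GNT3 mice, so the aged AAV-EGFP mice lay above both other groups, and the part of this in either comparison was not tested. The 3 aged AAV-EGFP mice lay wholly above the 3 young mice for 496 genes (8.62%) and wholly below for 530 (9.21%). The count moved with the libraries and the settings: without replicate 1 of the aged AAV-EGFP group the same test called 218 genes. Without replicates 2 and 3 it called 4, but that arm was then 1 library, assumed to vary like the other groups, so this count is not comparable with the 218. When only the Lama1 nuclei were summed, an alternative added after the data were seen, it called 110, with at least 4 markers required 118, and with no filter on low counts 292. On simulated counts, where 5533 genes were tested, the procedure recovered 28.9% of 83 genes changed 2-fold and 86.7% of 105 changed 4-fold. It made 12 false calls among 127 calls.

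Svep1 (chr4:58042442-58206859, minus strand), the adhesive matrix protein of the Lama1 nuclei, was among the 5 genes of smallest p on the higher side. It was at 76.0, 136 and 86.0 CPM in the young mice, 228, 274 and 303 in the aged AAV-EGFP mice and 245, 158 and 242 in the aged AAV-B3GNT3 mice. All 6 aged mice were above all 3 young ones. The log2 fold change with age was 1.48 ± 0.27 (SE; adjusted p = 0.0655, edgeR's quasi-likelihood test), and within the Lama1 nuclei alone it was 1.69 (adjusted p = 0.00632); over 22 alternatives the adjusted p ran from 0.000654 to 0.453. Per3, a gene of the circadian clock, was at 58.8, 64.6 and 61.8 in young mice, 254, 118 and 172 in aged AAV-EGFP mice and 212, 151 and 216 in aged AAV-B3GNT3 mice, again with no overlap between young and aged. Its log2 fold change was 1.52 ± 0.30 (adjusted p = 0.0655, edgeR). In the other nuclei of the same mice the log2 fold change was 0.90 for Svep1 (adjusted p = 0.0814, edgeR) and 0.52 for Per3 (adjusted p = 0.0232).

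The other 3 were widely expressed genes, and all 5 had a positive log2 fold change in the other nuclei too. Gapdh, a glycolytic enzyme, was at 24.5, 34.0 and 21.5 in young mice, 114, 143 and 89.9 in aged AAV-EGFP mice and 56.6, 29.7 and 52.8 in aged AAV-B3GNT3 mice. Its log2 fold change was 2.10 ± 0.37 in members and 1.16 in the other nuclei. Gapdh could pass the filter on low counts only through aged mice, so its rise in members tests nothing. H3f3b, a replacement histone, had 2.02 ± 0.40 and 1.42, and Pura, a nucleic acid binding protein, 1.33 ± 0.26 and 0.85. Each had an adjusted p of 0.0655 in members (edgeR), and each was at an intermediate or young level with AAV-B3GNT3.

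The 5 genes of smallest p on the lower side were all neuronal in their usual expression and at a higher level in the other nuclei than in the members. Kcnj3 (chr2:55435970-55598145, plus strand), a potassium channel, was at 105, 112 and 88.7 in young mice, 35.0, 37.3 and 22.5 in aged AAV-EGFP mice and 70.8, 84.5 and 92.5 in aged AAV-B3GNT3 mice, with a mean of 336 in other nuclei. Its log2 fold change was −1.74 ± 0.34 in members and 0.12 in other nuclei. Scn2a, a sodium channel, had −1.73 ± 0.34, Dscaml1, an adhesion molecule, −2.21 ± 0.44, Grm7, a glutamate receptor, −1.43 ± 0.29, and Cttnbp2, a synaptic cytoskeletal protein, −1.36 ± 0.27, each with an adjusted p of 0.0655 (edgeR). In the other nuclei the log2 fold change was 0.23 for Scn2a, 0.14 for Grm7 and 0.06 for Cttnbp2, and Dscaml1 was lower there too, at −0.60 (adjusted p = 0.0162, edgeR). The level of neuronal RNA in members, given as the ratio of the summed CPM of 12 abundant neuronal genes in members to that in all nuclei, moved with the groups. The ratio was 0.416, 0.279 and 0.265 in young mice, 0.179, 0.207 and 0.156 in aged AAV-EGFP mice and 0.247, 0.330 and 0.232 in aged AAV-B3GNT3 mice. Of these 12 genes, 8 had an unadjusted p under 0.05 on the lower side with age and 1 on the higher side, against 7.14% and 7.42% of all genes, and their median log2 fold change was −0.85 against 0.02 over all genes tested. When free RNA was subtracted from the member sums, edgeR called 0 of 4913 genes in either comparison, and none of the 5 lower genes was left in that fit. The amount subtracted was set by the ratio of these 12 neuronal genes. Neuronal RNA was thus taken toward 0 by construction, and the loss of the 5 genes tests nothing. The part of neuronal RNA in the lower genes was not tested. Of the 411 genes lower with age at an unadjusted p under 0.05, 139 were at a higher level in members than in other nuclei, against 387 of the 427 higher genes and 4261 of all 5753.

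The tested genes of 16 lists of fibroblast biology gave 0 calls among 210 with age by edgeR and 1 by DESeq2, which was Svep1. List genes given with values for either comparison, other than those of highest level on a list, were picked after their values were seen, for an unadjusted p under 0.05, and none passed the adjusted test. In the retinoic acid pathway, 3 of 5 genes tested were higher with age at that level and 0 lower, against 7.42% and 7.14% of all genes, and the median log2 fold change was 0.84. Of these 3, Dhrs3 and Cyp26b1 could pass the filter on low counts only through aged mice. The count and the median are thus partly set by the filter and test nothing. Aldh1a1, which makes retinoic acid, was at 179, 316 and 336 in young mice, 394, 554 and 506 in aged AAV-EGFP mice and 637, 397 and 519.5 in aged AAV-B3GNT3 mice. All 6 aged mice were above the 3 young ones, with a log2 fold change of 0.84 ± 0.26 (adjusted p = 0.159, edgeR) and −0.19 in other nuclei; without replicates 2 and 3 of the aged AAV-EGFP group it was 0.46. Dhrs3, which returns retinal to retinol, had 1.13 ± 0.43 and Cyp26b1, which degrades retinoic acid, 1.79 ± 0.71, the latter from 0 to 12.3 CPM in young mice. Rarb, a retinoic acid receptor, was at 208, 245 and 218, at 193, 243 and 179.8, and at 236, 233 and 273, with all groups overlapping.

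Among 20 matrix glycoproteins tested, 6 were higher and 1 lower with age at an unadjusted p under 0.05, against 7.42% and 7.14% of all genes, with a median log2 fold change of 0.36 against 0.02. The 1 lower gene was Slit2, the guidance cue of the Slc47a1 nuclei, at 1419, 873 and 573 in young mice, 657, 380 and 438 in aged AAV-EGFP mice and 524, 514 and 326 in aged AAV-B3GNT3 mice. The young and aged AAV-EGFP values overlapped. The log2 fold change was −0.98 ± 0.32 (adjusted p = 0.177, edgeR), and −0.61 without replicates 2 and 3 of the aged AAV-EGFP group. Within the Lama1 nuclei it was −2.77, a value near the floor. Slit2 had 67 UMIs there over all 9 samples, with a sample median of 18.3 CPM. Timp3 on the protease list and the matricellular genes Ctgf and Cyr61 on this one were high in replicates 2 and 3 of the aged AAV-EGFP group and not in replicate 1. Timp3 was at 206, 588 and 401 in young mice, 350.2, 2016 and 768 in aged AAV-EGFP mice and 514, 333 and 590.0 in aged AAV-B3GNT3 mice. Its log2 fold change was 1.44 ± 0.47 over all samples and −0.23 without replicates 2 and 3. For Ctgf these values were 1.65 ± 0.41 and −0.02. In replicate 1, Cyr61 had 0 CPM, against 193 and 82.4 in replicates 2 and 3. Summed smooth muscle markers in members were 167 to 194 CPM in young mice, 254 to 647 in aged AAV-EGFP mice and 132 to 205 in aged AAV-B3GNT3 mice, and pericyte markers 53.8 to 64.6, 96.3 to 149.8 and 20.5 to 61.6. Microglia markers summed to 44.1 to 78.1, 35.0 to 315 and 42.5 to 75.3, with none of the 6 at 0 over all samples. Of the 6 smooth muscle markers Cnn1 was at 0 over all samples, and of the 6 pericyte markers Kcnj8 was. The pericyte sum was mostly Vtn, with 140 UMIs over all samples against 12 for the next gene, Abcc9. The smooth muscle sum was mostly Mrvi1 and Lmod1, with 371 and 108 UMIs, then Tagln with 62. The part of these cell types in the matrix genes was not tested.

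Basement membrane genes were mixed with age: of 12 tested, 4 were higher and 2 lower at an unadjusted p under 0.05, against 7.42% and 7.14% of all genes. Col4a2 was at 58.8, 64.6 and 78.0 in young mice, 105, 193 and 124 in aged AAV-EGFP mice and 99.1, 68.5 and 39.6 in aged AAV-B3GNT3 mice. The aged AAV-EGFP values lay above both other groups, with a log2 fold change of 1.08 ± 0.33 with age (adjusted p = 0.148, edgeR) and −1.08 ± 0.34 with AAV-B3GNT3 (adjusted p = 0.32), which share the aged AAV-EGFP samples. Agrn, an anchor of basement membranes, had 1.40 ± 0.51 with age, Lamc3 −0.77 ± 0.34 and Nid1 −0.75 ± 0.35. Lama2, another laminin chain, was at 810.1 to 1681 CPM over all 9 samples with a log2 fold change of 0.27 ± 0.22. Among growth factors, Pdgfd was at 451, 404 and 349.5 in young mice and 613, 622 and 1030 in aged AAV-EGFP mice, with a log2 fold change of 0.93 ± 0.24 in members (adjusted p = 0.103, edgeR) and −0.45 in other nuclei. Ntrk2, the receptor of BDNF and a gene of higher level in other nuclei, had −1.11 ± 0.29. The class I antigen gene H2-K1 was at 22.1, 34.0 and 16.1 in young mice and at 43.8, 87.1 and 63.7 in aged AAV-EGFP mice. Its log2 fold change was 1.48 ± 0.42 (adjusted p = 0.124, edgeR). H2-K1 could pass the filter on low counts only through aged mice, so this value tests nothing. Without replicates 2 and 3 of the aged AAV-EGFP group the log2 fold change with age was 0.58 for Col4a2, −0.40 for Lamc3, −0.27 for Nid1, 0.54 for Pdgfd and 0.82 for H2-K1, and for Col4a2 with AAV-B3GNT3 it was −0.59. Within the Lama1 nuclei alone, Nid1 had −0.46 with age. Of 6 cell cycle and senescence genes tested, 0 had an unadjusted p under 0.05 in edgeR's test with age.

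**Figure D4:**
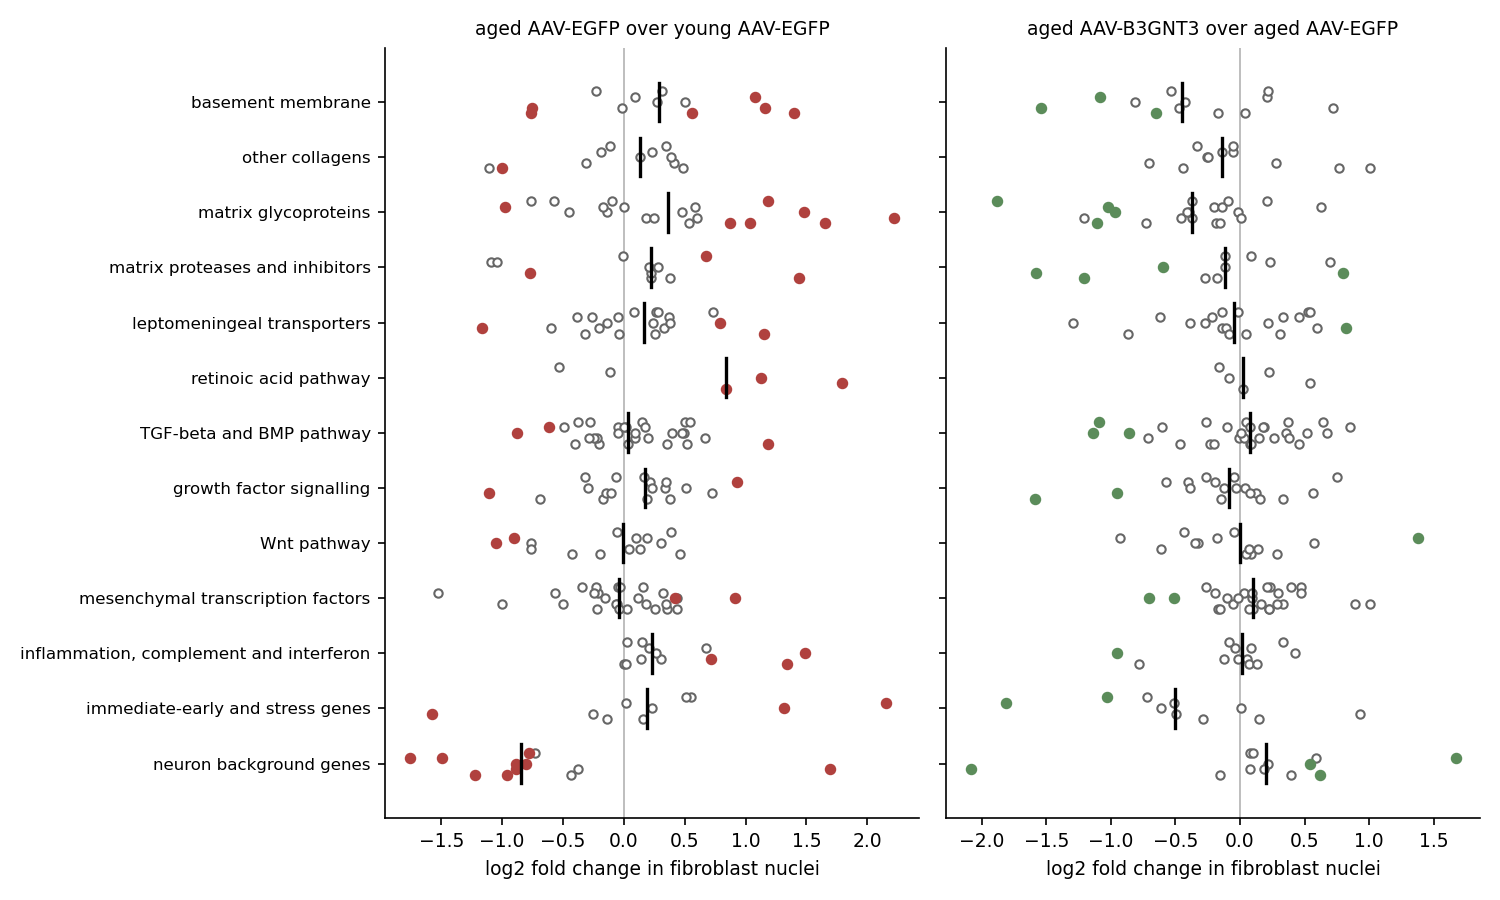
Log2 fold changes of the tested genes of 12 lists of fibroblast biology and of 12 neuronal genes in fibroblast nuclei, with age (left) and with AAV-B3GNT3 in aged mice (right); each circle is a gene, filled where its unadjusted p was under 0.05, and black bars are list medians. The retinoic acid list has its median at 0.84 with age and 0.02 with AAV-B3GNT3, and no gene passed the adjusted test. On that list Dhrs3 and Cyp26b1 could pass the filter on low counts only through aged mice.

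To ask whether AAV-B3GNT3 changed these nuclei in aged mice, the aged AAV-B3GNT3 and AAV-EGFP groups were compared in the same fit. No gene passed. edgeR's quasi-likelihood test with Benjamini-Hochberg adjustment called 0 of 5753 (0%), with a lowest adjusted p of 0.162. At an unadjusted p under 0.05 there were 548 genes (9.53%), 225 higher (3.91%) and 323 lower (5.61%), and DESeq2 called 4 (0.0695%). The groups did not overlap for 479 genes on the higher side (8.33%) and 307 on the lower (5.34%). Without replicate 1 of the aged AAV-EGFP group edgeR called 47. Without its replicates 2 and 3, which leaves 1 library assumed to vary like the other groups, it called 5. Both comparisons share the aged AAV-EGFP samples, so a gene that was high or low in those 3 mice appears in both with opposite signs.

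Cst3 (chr2:148871722-148875692, minus strand), a secreted protease inhibitor, had the smallest p. It was at 73.5, 109 and 51.1 in young mice, 175, 212 and 179.8 in aged AAV-EGFP mice and 84.9, 47.9 and 52.8 in aged AAV-B3GNT3 mice. The aged AAV-EGFP mice were above both other groups. The log2 fold change with AAV-B3GNT3 was −1.70 ± 0.32 in members (adjusted p = 0.162, edgeR) and −1.11 in other nuclei. Vtn (chr11:78499091-78502324, plus strand), an adhesive glycoprotein listed here as a pericyte marker, was at 44.1, 61.2 and 43.0, at 96.3, 87.1 and 139, and at 28.3, 18.3 and 52.8. Its groups with and without the transgene did not overlap in aged mice, and its log2 fold change was −1.88 ± 0.39 (adjusted p = 0.162, edgeR). Armcx3, a mitochondrial protein, had −2.24 ± 0.43, the postsynaptic gene Nrgn −2.09 ± 0.40 and the long noncoding RNA Gm26699 −2.37 ± 0.48, with the same adjusted p. Without replicates 2 and 3 of the aged AAV-EGFP group the value of Nrgn was −1.27.

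On the higher side the genes of smallest p were Map7, Myo10, Rgs7bp, Phtf2 and Kcnmb2. Map7, a microtubule-binding protein, was at 118, 119 and 99.5 in young mice, 26.3, 68.4 and 44.9 in aged AAV-EGFP mice and 113, 155 and 189 in aged AAV-B3GNT3 mice, with a log2 fold change of 1.62 ± 0.33 (adjusted p = 0.162, edgeR) and a mean of 499.6 in other nuclei; without replicates 2 and 3 of the aged AAV-EGFP group it was 2.54. Myo10, a filopodial motor, was at 154, 98.5 and 116, at 43.8, 80.9 and 22.5, and at 250.0, 137 and 159, with 1.90 ± 0.41 (adjusted p = 0.18). Within the Lama1 nuclei alone the value of Myo10 was 0.81 (adjusted p = 0.643, edgeR). For each of these 5 genes the lowest group was the aged AAV-EGFP group. Rgs7bp, which anchors regulators of G-protein signalling, had 1.09 ± 0.25, Phtf2 1.70 ± 0.40 and Kcnmb2, a subunit of potassium channels, 2.13 ± 0.51, each with an adjusted p of 0.253 (edgeR). With free RNA subtracted, the log2 fold change was 4.27 for Kcnmb2 and −4.08 for Nrgn. The subtraction was scaled by the 12 abundant neuronal genes, which include Nrgn. Both values rest on what it left of each gene and test nothing. Map7, Rgs7bp and Kcnmb2 were at a higher level in other nuclei than in members. The ratio of neuronal RNA in members to that in all nuclei, given above, did not overlap between the aged groups and was higher with AAV-B3GNT3. Of the 12 abundant neuronal genes, 3 were higher and 1 lower at an unadjusted p under 0.05, against 3.91% and 5.61% of all genes, with a median log2 fold change of 0.20 against −0.01. Of the 225 genes higher with AAV-B3GNT3 at an unadjusted p under 0.05, 127 were at a higher level in members than in other nuclei (56.4%), against 280 of the 323 lower genes (86.7%) and 74.1% of all genes tested. The part of neuronal RNA in the higher genes was not tested.

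**Figure D5:**
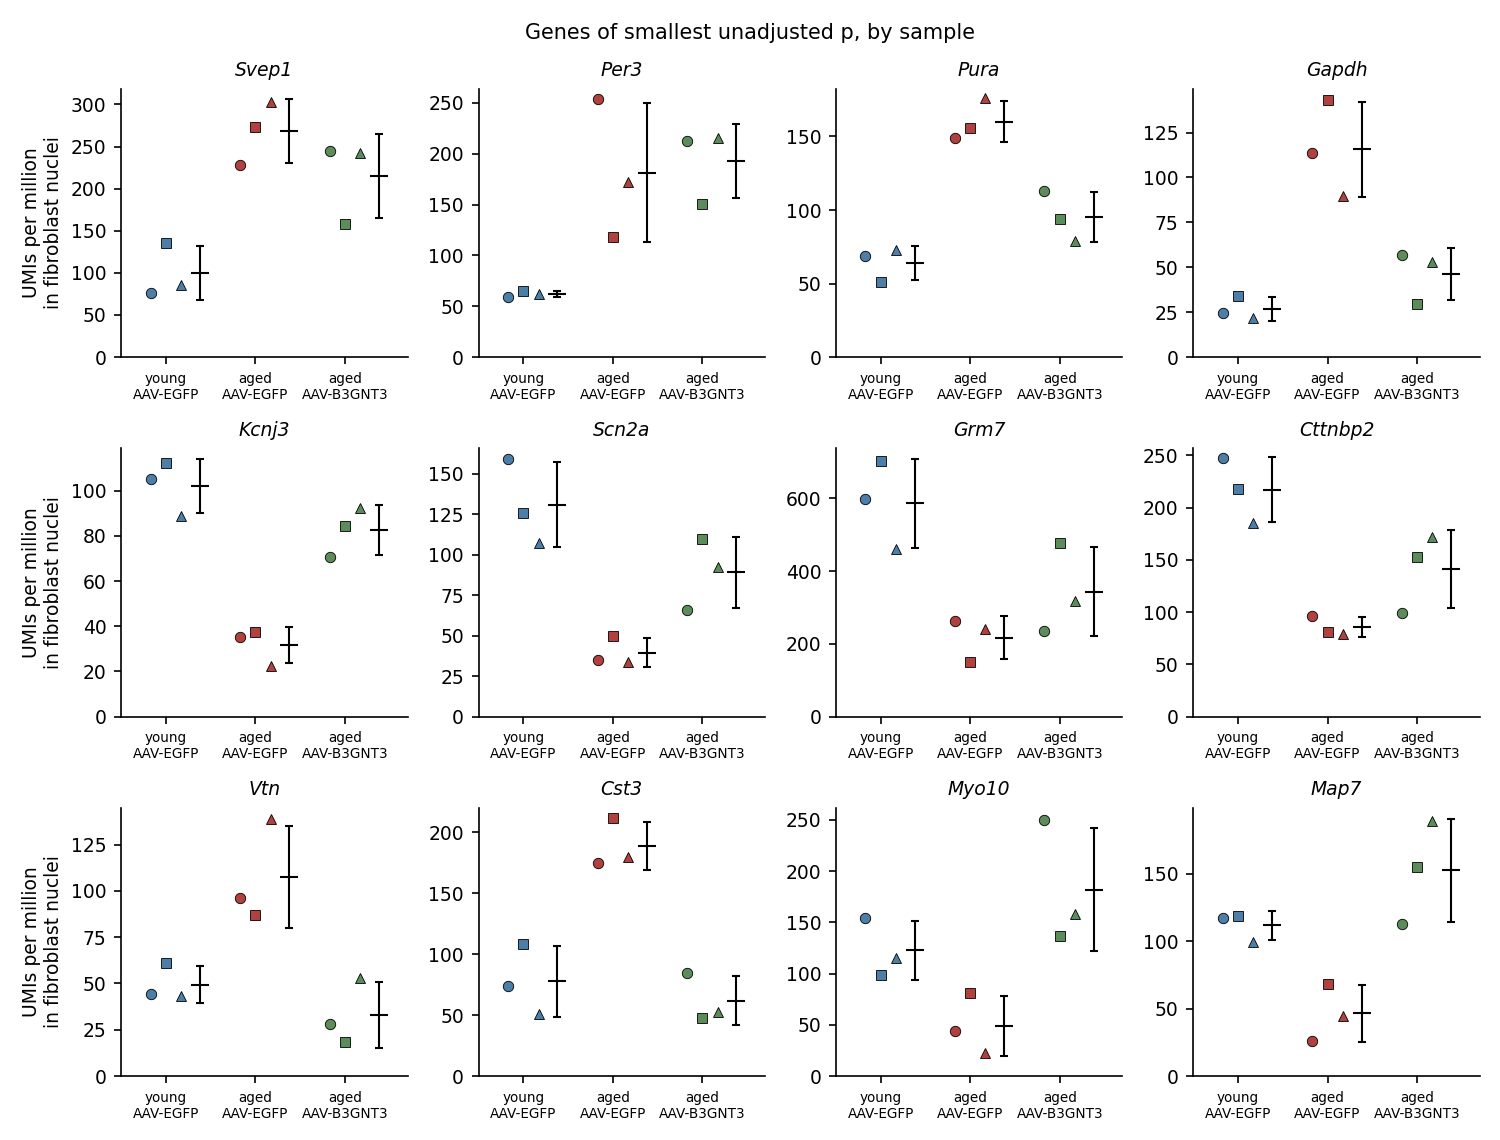
CPM in fibroblast nuclei for 12 of the genes of smallest unadjusted p, by sample (circle, square and triangle are replicates 1, 2 and 3; black bars are the mean ± SD of 3). Svep1 lies at 76.0 to 136 in young mice and at 158 or more in all 6 aged mice, and Cst3 at 175 or more in the aged AAV-EGFP mice and below 110 elsewhere.

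With AAV-B3GNT3 the lists gave 0 calls among 210 genes by edgeR and 0 by DESeq2. At an unadjusted p under 0.05, where 5.61% of all genes were lower and 3.91% higher, 3 of 12 basement membrane genes were lower and 0 higher, with a median log2 fold change of −0.45, and 4 of 20 matrix glycoproteins were lower and 0 higher, with a median of −0.37; the median over all genes was −0.01. Genes listed as markers of other cell types were lower as well. The summed smooth muscle and pericyte markers given above did not overlap between the aged groups. At an unadjusted p under 0.05, 2 of 2 smooth muscle markers tested and the 1 pericyte marker tested were lower. That pericyte marker is Vtn, which is also on the matrix glycoprotein list and made up most of the pericyte sum. Mrvi1 and Lmod1 made up most of the smooth muscle sum. The 1 microglia marker tested was lower at that level too (log2 fold change −0.98), while the summed microglia markers overlapped between the aged groups. The part of these cell types in the matrix genes was not tested. Col4a6 was at 700.3, 628 and 371 in aged AAV-EGFP mice and 439, 342 and 330.2 in aged AAV-B3GNT3 mice, with overlap between the groups and a log2 fold change of −0.65 ± 0.25. Igfbp5, a carrier of insulin-like growth factors detected mostly in Slc47a1 nuclei, was at 184, 305 and 468 and at 179, 121 and 185, with −1.11 ± 0.32, and −0.20 without replicates 2 and 3 of the aged AAV-EGFP group. Rspo3, the Wnt enhancer of the Slc47a1 nuclei, was at 265, 190.3 and 242 in young mice, 245, 31.1 and 119.8 in aged AAV-EGFP mice and 283, 365 and 343 in aged AAV-B3GNT3 mice. The AAV-B3GNT3 mice were above all others, with a log2 fold change of 1.37 ± 0.39 (adjusted p = 0.276, edgeR), and 0.46 without replicates 2 and 3. The mean share of Slc47a1 nuclei was also highest in the AAV-B3GNT3 mice, and its part in the level of Rspo3 was not tested. Adamts12, a protease, was at 665, 218 and 187 and at 84.9, 86.7 and 185, with −1.58 ± 0.43. For Adamts12 the value was −0.83 without replicate 1 of the aged AAV-EGFP group (adjusted p = 0.278, edgeR) and −2.50 against replicate 1 alone, a value of 1 library. Adamts2, which trims procollagen, was at 43.8, 62.2 and 97.4 and at 156, 249 and 163, with 1.36 ± 0.39, and 2.16 against replicate 1 alone. Of 5 retinoic acid genes tested, 0 had an unadjusted p under 0.05 in edgeR's test, and Aldh1a1 had a log2 fold change of 0.02 ± 0.26. C1galt1, the enzyme that makes the core 1 structure of mucin-type O-glycans, was at 27.0, 37.4 and 35.0 CPM in young mice. In aged mice it was at 17.5, 37.3 and 18.7 with AAV-EGFP and at 47.2, 54.8 and 61.6 with AAV-B3GNT3. Its log2 fold change with AAV-B3GNT3 was 1.12 ± 0.43 (adjusted p = 0.431, edgeR). C1galt1 could pass the filter on low counts only through the AAV-B3GNT3 mice, so this value tests nothing.

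Whether the change with age or AAV-B3GNT3 differed between fibroblast nuclei and other nuclei of the same libraries was tested as an interaction. The sample was a block, and levels themselves were not tested between these nuclei. For either comparison no gene passed edgeR's quasi-likelihood test with Benjamini-Hochberg adjustment. For age it called 0 of 5753 (0%), with a lowest adjusted p of 0.0831. At an unadjusted p under 0.05 there were 748 genes (13%). Of these, 279 had a higher log2 fold change in members than in other nuclei (4.85%) and 469 a lower one (8.15%). For AAV-B3GNT3 it called 0 (0%), with a lowest adjusted p of 0.185. At an unadjusted p under 0.05 there were 599 genes (10.4%). Here 318 had a higher log2 fold change in members (5.53%) and 281 a lower one (4.88%). DESeq2 was not run on this difference. With age, the log2 fold change in members minus that in other nuclei was −2.02 for Scn2a and −1.90 for Kcnj3. Both had an adjusted p of 0.0831 (edgeR). For Pdgfd the difference was 1.31 (adjusted p = 0.0922), for Aldh1a1 0.99 (adjusted p = 0.197) and for Svep1 0.47 (adjusted p = 0.633). Without replicate 1 of the aged AAV-EGFP group, 102 genes passed for age and 13 for AAV-B3GNT3.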

How the data were processed

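Single-nucleus RNA was measured in 9 libraries, 3 per group. The deposited matrices hold raw UMI counts, whole numbers for every gene in every nucleus, made by the authors with Cell Ranger against GRCm38 (mm10). The labels name version 4.0.0 and the matrix headers 7.2.0, and whether intronic reads were counted is not given in the sources used here. Of 31053 genes listed, 30934 had a position in GENCODE annotation of GRCm38. Nothing else of the authors' processing entered the values.

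Groups came from the sample labels. Members of the fibroblast rule were found in Python 3.11.15 with scipy 1.17.1, and their UMI counts were summed per sample, since nuclei are not replicates. The members and lists were chosen with earlier results of these data known. Sums of 5753 genes (minimum count 10, the 17 rule genes left out) were tested in 1 fit of 9 samples with edgeR 4.0.16 (TMM, quasi-likelihood, Benjamini-Hochberg adjustment, threshold 0.05) in R 4.3.3, and with DESeq2 1.42.0 as an alternative. Levels are CPM, scaled to 1000000 member UMIs a sample, and fold changes use TMM scaling, which assumes that most genes do not differ. Shares were compared with exact permutation tests. Named genes are the 5 of smallest p in each direction per comparison (none passed, so the part of the rule for passing genes named none), the rule markers, and up to 4 genes of highest level per list, with others named as chosen later. Free RNA and doublets were left in the main sums and removed in alternatives. Each library held 47332047 to 79964605 UMIs, and a sample's members 114235 to 438056, which sets the precision of each level. Whether each library was a separate mouse beyond its label was not checked, and p-values measure the spread between these samples. The scripts were tested on simulated data.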

Additional observations from a re-analysis of the deposited data

How the results depend on the processing

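The lower share in aged than in young AAV-EGFP mice (−0.615 points) kept its direction in all alternatives but 1. It was −0.433 with at least 4 markers, −0.205 with at least 5, and 0.0621 with members holding other cell types' markers removed. With nuclei of at least 1000 UMIs thinned to 1000 each, it was −0.400. The exact permutation p of the F statistic was then 0.104. Leaving out each sample gave −0.750 to −0.398. The exact permutation p of the F statistic over the 3 groups was 0.0143 with at least 4 markers and 0.0429 with at least 5. For aged against young AAV-EGFP alone the exact permutation p was 0.1 under both, the smallest that 3 against 3 allows. Genes called with age numbered 35 with DESeq2, 292 with no filter on low counts, 118 with at least 4 markers, 127 with at least 5 and 24 with doublets removed. Alternatives chosen after seeing the data gave 110 in the Lama1 nuclei and 4 without replicates 2 and 3 of the aged AAV-EGFP group, which leaves 1 library in that arm, assumed to vary like the other groups here and below. For AAV-B3GNT3 these counts were 4 with DESeq2, 86 with no filter, 6 with at least 5 markers and 5 without replicates 2 and 3. With at least 4 markers, the difference in change from other nuclei gave 144 genes with age and 10 with AAV-B3GNT3. List genes called with age were 1 with DESeq2, 15 with no filter, 3 with at least 4 markers, 6 with at least 5, 1 with doublets removed, 5 in the Lama1 nuclei and 1 without replicates 2 and 3; with AAV-B3GNT3 they were 9 with no filter, 1 with at least 5 markers and 1 without replicates 2 and 3. Leaving out 1 sample at a time gave 0 to 218 genes with age and 0 to 47 with AAV-B3GNT3. It gave 0 to 102 and 0 to 13 for the differences in change from other nuclei, and 0 to 15 and 0 to 6 list genes. The highest of each range was reached without replicate 1 of the aged AAV-EGFP group; the cause was not tested.

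Of 1732 values of named genes under alternatives, 1717 kept their direction. Without replicates 2 and 3 of the aged AAV-EGFP group, the log2 fold change with age turned to −1.29 for Cd55, 0.0586 for Col8a1, −0.0190 for Ctgf, −0.90 for Ier3, 0.00623 for Rspo3, −0.22 for Stat3, −0.23 for Timp3 and −5.65 for Cyr61, the last fitted against a library with 0 UMIs and no bound. With AAV-B3GNT3 it turned to 0.84 for Fstl1, 0.75 for Hspa5 and 0.45 for Timp3. With other cell types' markers removed it turned to −0.24 for Igfbp5, 0.00802 for Rspo3 and 0.21 for Slit2 with age, and 0.82 for Ebf1 with AAV-B3GNT3. With the replicate number as a block, 0 genes were called in either comparison. Deviations of same-numbered samples had an r of 0.10, 0.09 and 0.29 between young and aged AAV-EGFP. Differently numbered samples there had −0.25 to 0.12. Between the aged groups, same-numbered samples had −0.12, −0.02 and −0.05 and the others −0.14 to 0.18. Whether the numbers pair the samples was not tested. In the tests across genes, a sample left with fewer than 10 members was left out: replicate 1 of the aged AAV-EGFP group with at least 5 markers, and 2 samples with other cell types removed. The shares include all 9 samples. Members gave 45 to 139 nuclei a sample.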
